A study of Mus musculus with 36 samples.

Results

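Gene expression in the LiTEC line of mouse embryonic stem cells was set against wild-type (WT) cells in the 18 libraries, of 36 in the series, that received no blue light. They were chosen by their titles: 9 libraries of LiTEC-transfected cells and 9 of WT cells, 3 in each line at 0, 1 and 4 h on the clock of the light treatment given to the other 18 libraries. All cultures of both lines had doxycycline at 2 µg/ml for 2 days and grew without serum in 2i medium (a MEK inhibitor and a GSK3β inhibitor) with the cytokine LIF. LiTEC is the light-driven targeting tool after which the series is named, and the series asks how it affects transcription. The dark comparison measures what already differed between the lines before any light. By the titles, batch 1 holds replicate 1 of each line and time, and batch 2 the other 2 replicates. Nothing in the labels marks replicates as separate cultures, so the p-values reflect library-to-library spread, which may be technical. The comparison is between 1 transfected line and 1 WT line: the construct, doxycycline acting through it, and the separate history of the lines cannot be told apart. Whether the LiTEC line is 1 clone is not given in the sources used here, and RNA of the construct itself was not analysed here.

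Embryonic stem cells in 2i with LIF hold a naive state, in which transcription factors such as Oct4 (the gene Pou5f1), Sox2, Nanog, Klf4 and Esrrb keep one another active while FGF/ERK signalling is blocked and Wnt signalling is mimicked. A few cells in such cultures pass for a time through a 2-cell-like state that switches on genes of the early embryo, the Zscan4 cluster among them. Cells leaving the naive state first take up formative genes such as Fgf5, Otx2, Lef1 and Pou3f1, and then those of a germ layer, for example T (brachyury) and Eomes in the primitive streak.

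Library totals ran from 12969811 to 21842256 counts (LiTEC up to 18376797, WT from 16048657). The unit CPM stands for a gene's counts per 1e6 counts of its library, with library sizes adjusted by TMM. The WT library of 4 h, replicate 3, had 26.1% of its counts on Gm26917, a ribosomal RNA locus, against a median of 9.63% and a next highest value of 11.4%. The first principal component (46% of variance) separated the lines and the second (18%) the batches. The label of embryonic stem cells was checked on 7 markers, which were all detected, with summed levels of 2540 to 2780 CPM in LiTEC and 2680 to 3150 CPM in WT. Summed levels of markers of other cells were far lower: 5 to 8 markers each of primitive endoderm, primitive streak, neuroectoderm, trophectoderm and fibroblasts summed to at most 22.1 CPM in any library. Lum and Dcn of fibroblasts and Olig2 of neuroectoderm had a median of 0 in both lines.

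Of 17538 tested genes, 8244 (47.0%) differed between the lines at an adjusted p below 0.05 (edgeR's quasi-likelihood test with time and batch as terms, Benjamini-Hochberg adjustment over all tested genes). A gene that passed is called higher or lower in LiTEC here: 4283 (24.4%) were higher and 3961 (22.6%) lower. Most differences were small, with a median size of 0.347 on the log2 scale among called genes. Only 920 genes (5.25%) were called and over 1 log2, 631 higher (3.60%) and 289 lower (1.65%), and 217 were over 2 log2, 180 of them higher. In 789 genes (4.50%) each LiTEC library was above each WT library, and in 624 (3.56%) each was below.

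**Figure D1:**
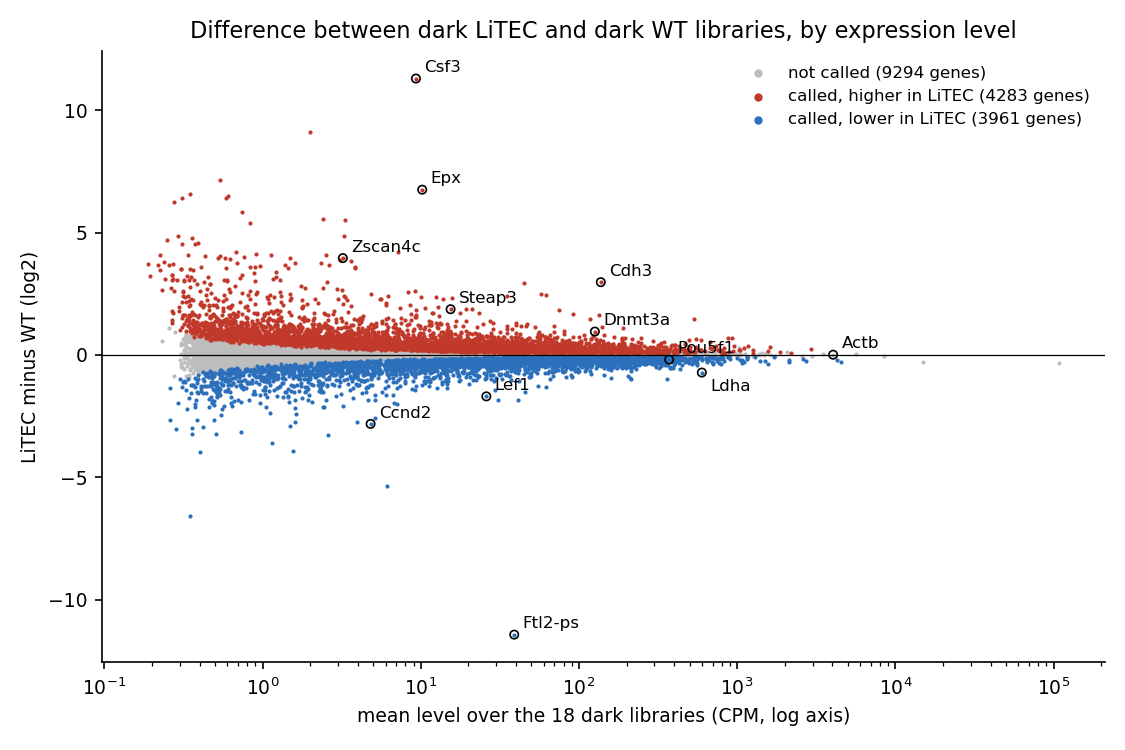
Difference between lines on the log2 scale (y axis) against the mean level over the 18 dark libraries in CPM (x axis, log scale), 1 point per tested gene, with genes called higher in LiTEC in red, called lower in blue and not called in grey. Csf3, Epx and Ftl2-ps lie far from 0, while Pou5f1 (-0.19) and Actb (0.01) lie near it.

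A small set of genes was close to present in one line and absent from the other. Csf3, which encodes the cytokine G-CSF (chromosome 11, 98701263 to 98703629, GRCm38), was at 13.4, 18.3 and 24.3 CPM (lowest, median, highest) in LiTEC and had no count in any WT library. With 2693 counts against 0 this is at least 1010-fold higher, taking 3 counts over the 9 WT libraries as the floor. Its nearest tested neighbours did not pass: Psmd3 differed by 0.03 and Med24 by -0.05 log2. Thra, the next gene beyond Med24, was called higher by 0.31 ± 0.06 log2. Epx, which encodes eosinophil peroxidase, was at 16.5, 20.5 and 22.9 CPM in LiTEC against 0, 0.151 and 0.328 CPM in WT, a difference of 6.75 ± 0.16 log2 (SE, edgeR adjusted p = 1.47e-19). The 9 libraries of each line did not overlap for Csf3 or for Epx. Near Epx, Mks1 (0.28 log2) and Lpo (1.72, at means under 1 CPM) were called higher, while Dynll2 (0.04) and Gm11508 (-0.59) did not pass. Under a fixed limit (each library of one line under 0.1 CPM, a mean of at least 1 CPM in the other) 5 genes were on in LiTEC alone and 0 in WT alone. The other four were Acsm4, a medium-chain acyl-CoA synthetase (581 counts against 0, at least 217-fold), Sox14, a SOX transcription factor (175 against 1, ratio 196, 34.7 to 7790), A2ml1 (168 against 1, ratio 188, 33.3 to 7480) and the olfactory receptor gene Olfr787 (148 against 0, at least 55.3-fold). Intervals are 95% and cover counting error only.

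The opposite pattern was seen in Ftl2-ps, a processed pseudogene of ferritin light chain that lies within Grik3 on the same strand (chromosome 4, 125504288 to 125504839). It was at 61.9, 79.6 and 95.4 CPM in WT, and in LiTEC 3 counts were found over all 9 libraries against 12617 in WT, a ratio of 3750 (1280 to 18200). Ftl2-ps narrowly missed the fixed limit for a gene on in WT alone, with its highest LiTEC library at 0.149 CPM against 0.1 CPM. Reads of a near-identical copy can be placed at either copy, so its level is uncertain. The functional gene Ftl1 was higher in LiTEC (831 ± 59.2 against 640 ± 82.0 CPM, SD, n = 9 and 9, 0.38 log2), and Grik3, the host gene, was higher too, by 0.53 ± 0.05 log2.

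Among other genes with at least 5 CPM in a line, the largest higher ones belonged to varied functions. Unc80, a subunit of a sodium leak channel, was 5.50 ± 0.20 log2 higher and Lcp1, the actin bundler L-plastin, 4.20 ± 0.21. Lypd1 was 4.86 ± 0.20 higher and overlaps Gpr39 on the other strand, so its reads are uncertain. Armc2 (3.88), the transcription factor gene Glis1 (2.68) and the cofilin phosphatase gene Ssh3 (2.61) were higher as well. In each of these 6 genes the lowest LiTEC library was above the highest WT library, and the difference in the lit libraries ran from 2.48 log2 (Ssh3) to 5.01 log2 (Lypd1). Some had neighbours that were higher too: Nckap5 beside Lypd1 by 1.96 log2, and Sesn1 and Foxo3 near Armc2 by 0.56 and 0.82. Unc80 lies in a run of 5 neighbouring tested genes called higher (median 0.63). The tested genes next to Lcp1, Glis1 and Ssh3 were not called higher.

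Cdh3, which encodes P-cadherin, was at 187, 232 and 316 CPM in LiTEC against 18.7, 29.0 and 46.4 CPM in WT, 2.98 ± 0.08 log2 higher (edgeR adjusted p = 5.78e-18). Adgrg1, an adhesion G protein-coupled receptor, was at 69.4, 78.0 and 88.2 CPM against 6.81, 9.89 and 13.5 CPM, 2.96 ± 0.09 log2 higher. Neither gene overlapped between lines, and both lie on chromosome 8, where most genes were higher in LiTEC. Cdh1, E-cadherin, whose gene lies beside Cdh3, was 0.64 ± 0.05 log2 higher. Of 17 tested adhesion and epithelial genes, 9 were higher and 3 lower (median 0.29, against 0.01 over all tested genes). The share called was 70.6%, beside 47.0% over all tested genes. Itgb1, integrin β1, was 0.54 higher and the tight junction gene Cldn4 0.73 higher, while Vim (vimentin) was at -0.40 and Cdh2, N-cadherin, at -0.67. Outside chromosomes 6 and 8 the count was 6 higher and 3 lower of 14.

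The largest lower genes, besides Ftl2-ps, held several regulators of development. Ccnd2, which encodes cyclin D2, was at 0.248, 1.10 and 2.43 CPM in LiTEC against 3.02, 7.73 and 13.2 CPM in WT, a difference of -2.82 ± 0.29 log2 (edgeR adjusted p = 3.01e-08), with no overlap. It lies on chromosome 6, where more genes were lower than higher, in a run of 5 neighbouring tested genes called lower (median -0.30). Bcl11a, a zinc finger repressor, differed by -2.59 ± 0.25, Vrtn, a regulator of vertebral number, by -2.10 ± 0.24 and the homeobox gene Nkx1-2 by -1.85 ± 0.27, and the ranges of the lines overlapped in all 3. Between libraries of the same time and replicate number, each of these 3 genes was lower in LiTEC in 9 of 9 pairs. The 3 genes were chosen by their average over these same libraries, so a shared direction is no separate evidence. Nkx1-2 shares its strand with the overlapping gene Fgfr2 and lies in a run of 7 neighbouring tested genes called lower (median -0.72). Sall3, a spalt zinc finger gene, was at 7.72, 10.7 and 24.5 CPM against 33.5, 40.0 and 75.5 CPM, and Nrp2, the receptor neuropilin 2, at 9.94, 18 and 25.8 CPM against 43.4, 63.3 and 74.8 CPM. These differences of -1.83 ± 0.18 and -1.82 ± 0.07 log2 left no overlap. Lef1, the Wnt-responsive transcription factor, was at 4.91, 11.4 and 23.0 CPM against 19.4, 36.3 and 63.3 CPM, a difference of -1.69 ± 0.14 log2 with some overlap between libraries of different batches.

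**Figure D2:**
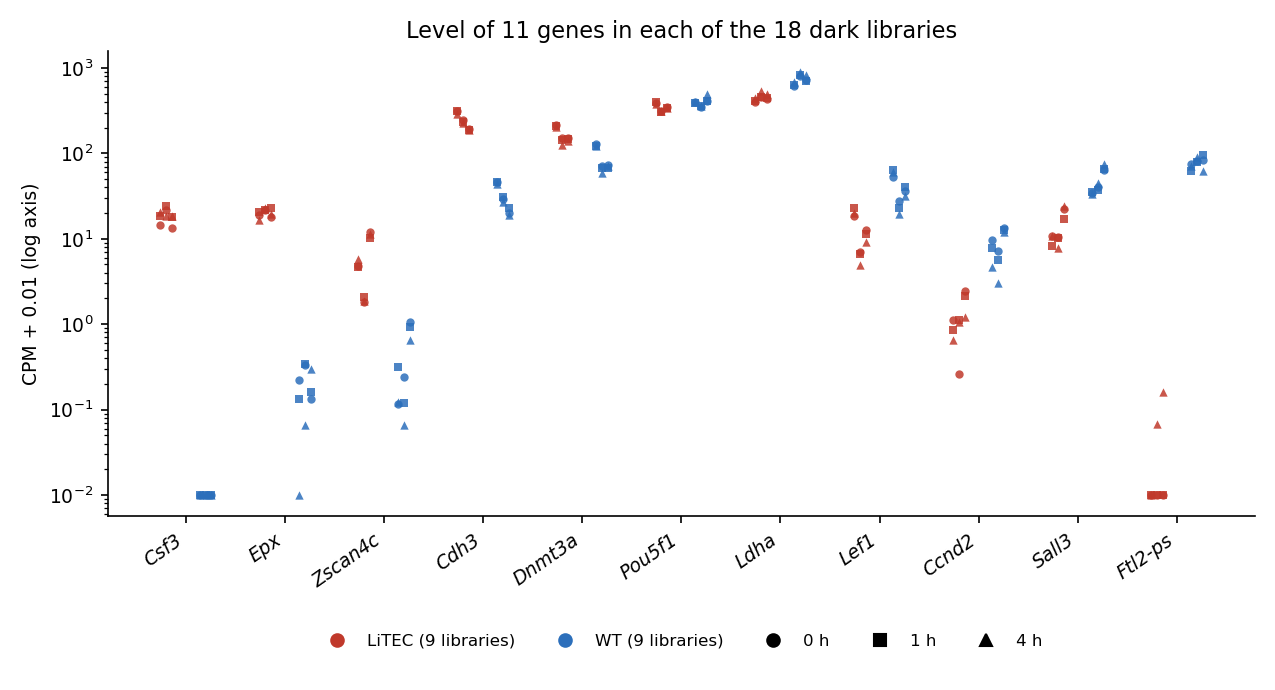
Level of 11 genes in each dark library, as CPM + 0.01 on a log axis, with LiTEC in red, WT in blue, circles for 0 h, squares for 1 h and triangles for 4 h, and replicates 1, 2 and 3 from left to right within a line. Csf3 has counts in the LiTEC libraries alone, Ftl2-ps is near 0 in LiTEC, and the lines overlap for Pou5f1, Dnmt3a and Lef1.

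Genes of the 2-cell-like state had the widest gap of the 41 gene lists examined. All 14 tested members of 22 listed were higher in LiTEC, with a median difference of 3.64 log2. The other 8 did not pass the filter on low counts, which a gene can pass through the line where it is high, so the 14 are not the whole list. The Zscan4 genes encode SCAN-domain zinc finger proteins that act at telomeres in bursts. Zscan4c was at 1.80, 4.73 and 12 CPM in LiTEC against 0.0559, 0.231 and 1.06 CPM in WT, 3.96 ± 0.49 log2 higher (edgeR adjusted p = 5.83e-07), and the lines did not overlap. Its LiTEC libraries varied among themselves, and replicate 3 was highest in both lines at each of the 3 times. Zscan4f (4.08), Zscan4b (3.97), Zscan4e (3.86), Zscan4d (3.61) and Zscan4a (3.55) were all higher, as were 5 ubiquitin protease genes of the Usp17l family (2.52 to 3.92), Tmem92 (3.07), Gm8300 (3.18) and the zinc finger gene Zfp352, which had 81 counts in LiTEC and 2 in WT. Within batch 1 the 14 had a median of 5.04 and within batch 2 of 3.42, all higher in both. In bulk RNA, a larger share of cells in a state and more RNA per such cell cannot be told apart.

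The Zscan4 copies lie side by side on chromosome 7 and are nearly alike, so reads may be split among them in ways the counts do not show. To show how alike the stretches before their starts are, the matching 216 bases upstream of 3 of them are given, from RefSeq on GRCm38.p6, 5′ to 3′ on each gene's strand: Zscan4c at chr7:11005506-11005721 (plus), Zscan4d at chr7:11166183-11166398 (minus) and Zscan4f at chr7:11397699-11397914 (plus). Capitals mark the 7 positions where the 3 copies are not the same.
Zscan4c: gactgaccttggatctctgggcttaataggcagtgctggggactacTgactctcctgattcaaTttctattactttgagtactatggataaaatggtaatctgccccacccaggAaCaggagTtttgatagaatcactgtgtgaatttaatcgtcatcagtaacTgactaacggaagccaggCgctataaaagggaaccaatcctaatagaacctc
Zscan4d: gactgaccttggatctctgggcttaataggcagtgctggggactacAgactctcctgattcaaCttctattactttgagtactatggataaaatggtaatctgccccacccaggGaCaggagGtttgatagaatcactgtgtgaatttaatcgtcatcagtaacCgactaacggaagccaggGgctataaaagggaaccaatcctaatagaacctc
Zscan4f: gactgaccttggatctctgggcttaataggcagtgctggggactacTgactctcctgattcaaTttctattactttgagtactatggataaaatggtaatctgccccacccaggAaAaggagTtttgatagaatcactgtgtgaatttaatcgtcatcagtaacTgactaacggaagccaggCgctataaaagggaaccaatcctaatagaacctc
Zscan4c and Zscan4f were identical at 99.5% of these bases, Zscan4c and Zscan4d at 97.2%, and Zscan4d and Zscan4f at 96.8%. All 3 genes, alike in this stretch, were higher in LiTEC by 3.61 to 4.08 log2.

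Germline genes also leaned to LiTEC: of 22 tested (27 listed), 14 were higher and 1 lower, with a median of 0.59 log2. The share called was 68.2%, beside 47.0% over all tested genes. Listed genes that did not pass the low-count filter are left out, and a gene can pass it through the line where it is high. Rhox5, an X-linked homeobox gene, was at 56.0, 59.5 and 64.7 CPM against 22.8, 26.8 and 28.6 CPM (1.19 ± 0.04 log2, edgeR adjusted p = 1.22e-15). Piwil2, a partner of piRNAs, was 1.31 ± 0.10 higher, Tex19.1, which restrains retrotransposons, 1.04 ± 0.11 and the germ cell factor Sohlh2 0.90 ± 0.09, each with no overlap between lines. Dazl, an RNA-binding protein gene of germ cells, was 0.89 higher. Sycp3, of the synaptonemal complex, was the lower one at -0.66. Of the genes that set DNA methylation, 4 were higher and 5 lower of 14, or 64.3% called beside 47.0% over all tested genes. The de novo methyltransferase gene Dnmt3a was at 124, 150.1 and 216 CPM against 58.2, 71.3 and 129.8 CPM (0.96 ± 0.05 log2), and the ranges overlapped, with both lines highest in batch 1. Dnmt3b was 0.29 higher, the demethylase gene Tet2 was at -0.51 and Uhrf1, which guides maintenance methylation, at -0.29. Dnmt1, the maintenance enzyme, was at -0.01 and did not pass, nor did Dnmt3l, a cofactor of the de novo enzymes, at -0.06 ± 0.08.

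The tested members of a pair of clustered developmental families leaned to LiTEC. The other 27 listed Hox genes and 35 listed protocadherin genes did not pass the low-count filter, which a gene can pass through the line where it is high. Of 12 tested Hox genes (39 listed), 8 were higher and 0 lower, median 0.81, or 66.7% called beside 47.0% over all tested genes. Of the 8, 6 are in the HoxC cluster: Hoxc8 (1.65 ± 0.31), Hoxc11 (1.41 ± 0.27), Hoxc9 (1.39), Hoxc12 (1.17 ± 0.13), Hoxc13 (0.85 ± 0.13) and Hoxc10 (0.57). Hoxc12 was at 1.22, 3.59 and 4.97 CPM against 0.591, 1.48 and 2.60 CPM, so the levels were low and the lines overlapped. Of 22 tested clustered protocadherin genes (57 listed), which give neurons their surface identity, 20 were higher and 0 lower (90.9% called), median 0.54. Only 10 of the 22 were called in the dark and also in the lit libraries in the same direction. Protocadherin genes share last exons and overlap one another, so their counts are not independent. Within batch 1 alone 5 of the 22 passed, median 0.34, and within batch 2 alone 17, median 0.63.

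**Figure D3:**
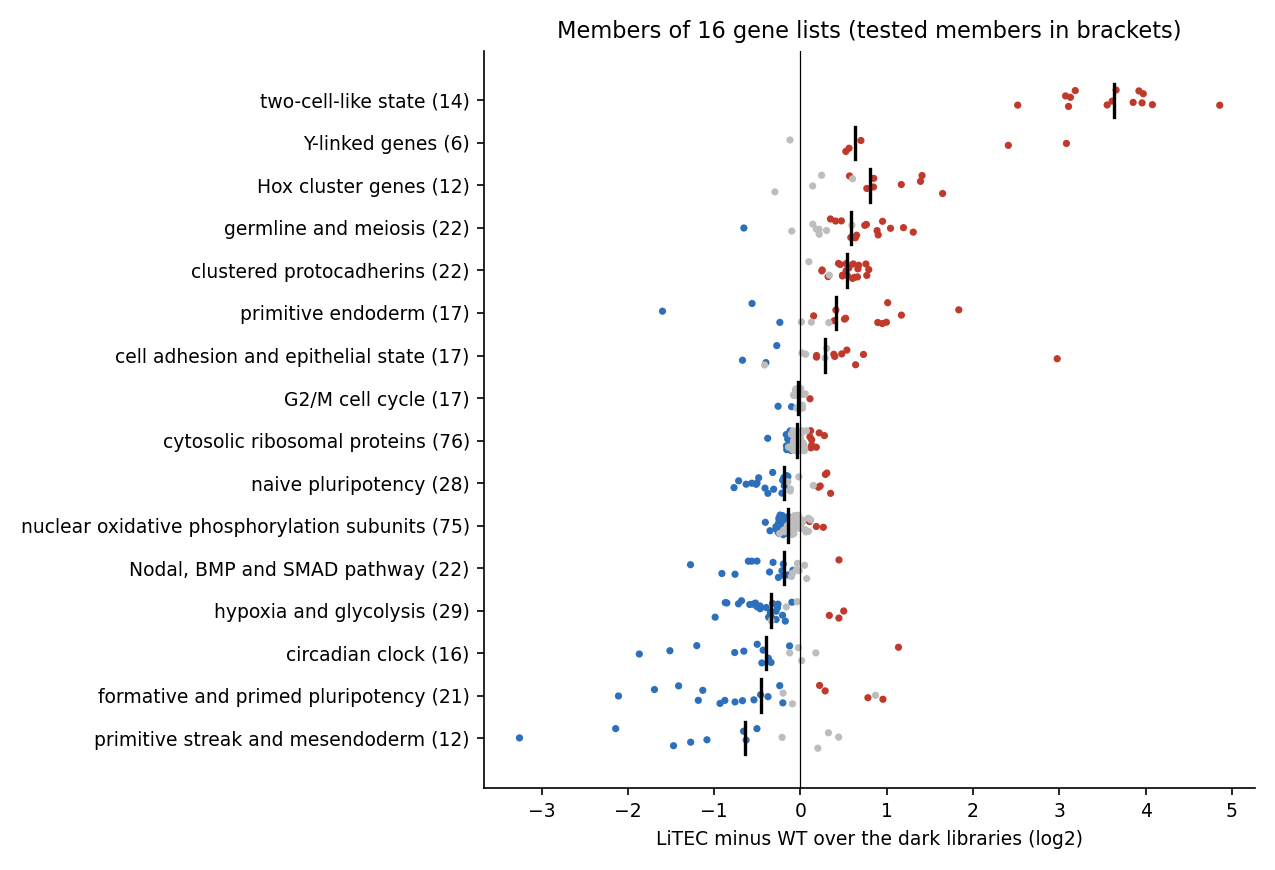
Members of 16 gene lists, with 1 point per tested member at its LiTEC minus WT difference on the log2 scale, red for called higher, blue for called lower, grey for not called, and a black bar at the list's median. The 14 genes of the 2-cell-like state all lie above 2 log2, and the medians of the streak, formative, clock and hypoxia lists lie below 0.

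The core pluripotency genes differed little. Pou5f1 was at 307, 343 and 399 CPM in LiTEC against 347, 397 and 498 CPM in WT, a difference of -0.19 ± 0.06 log2 (edgeR adjusted p = 0.0113), and the lines overlapped. Sox2 (-0.31 ± 0.04), Klf4 (-0.38 ± 0.05), Nanog (-0.21 ± 0.05) and Esrrb (-0.16 ± 0.03) were also slightly lower, and WT was above LiTEC in every library for Sox2 alone of these 5. Zfp42, also called Rex1, ran the other way: 492, 568 and 610.0 CPM against 413, 454 and 474 CPM, 0.31 ± 0.03 log2 higher with no overlap, and its gene is on chromosome 8. Of the 28 naive genes, 18 were lower and 5 higher, with a median of -0.19, and none passed 1 log2. The share called was 82.1%, beside 47.0% over all tested genes. The nuclear receptor genes Nr0b1 (-0.77) and Nr5a2 (-0.50), the Nodal co-receptor gene Tdgf1 (-0.56) and Gbx2 (-0.72) were lower, and Tfcp2l1, a target of LIF signalling, was 0.35 higher. The batches were not alike here. Within batch 1 alone 12 were lower and 7 higher (median -0.06), with Pou5f1 at -0.02, Nanog at 0.06 and Klf4 at -0.11. Within batch 2 alone 18 were lower and 5 higher (median -0.28), with these genes at -0.28, -0.35 and -0.52.

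Of 21 formative and primed genes, 14 were lower and 4 higher, median -0.46, or 85.7% called beside 47.0% over all tested genes. Fgf5, the classic formative ligand, was at 0.169 ± 0.0909 CPM against 0.745 ± 0.288 CPM (SD, n = 9 and 9), -2.11 log2, with no overlap. Wnt8a (-1.41), the POU factor gene Pou3f1 (-1.18) and Fgf15 (-1.13) were lower, with means of 3.83 CPM or less in both lines. The exceptions were Dnmt3a, Otx2 (0.78), a homeobox factor of the formative state, Dnmt3b and Tead2 (0.22).

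Primitive streak genes were lower as well: 8 lower and 0 higher of 12 tested, median -0.64, or 66.7% called beside 47.0% over all tested genes. T, brachyury, was at 0.0584, 0.460 and 1.04 CPM in LiTEC against 2.68, 5.12 and 6.49 CPM in WT, a difference of -3.26 ± 0.18 log2 (edgeR adjusted p = 2.00e-12). Fgf8, a ligand of gastrulation, was at 0.106, 0.422 and 0.670 CPM against 1.07, 1.76 and 2.81 CPM (-2.14 ± 0.25). Neither gene overlapped between the lines, and both were lower in each batch (T at -3.96 and -3.09, Fgf8 at -2.01 and -2.22). Wnt3 was at -1.47 ± 0.28. Eomes was at -0.50 ± 0.15 over both batches but at 0.33 in batch 1 and -0.86 in batch 2. The list's median was 0.32 within batch 1, where 3 of 12 passed, all lower, and -0.83 within batch 2, where 7 passed.

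Primitive endoderm genes leaned to LiTEC, 11 higher and 3 lower of 17 tested (82.4% called), median 0.41. The endocytic receptor gene Lrp2 was at 63.1, 76.7 and 136 CPM against 21.2, 33.1 and 78.4 CPM (1.17 ± 0.09 log2), and the activin antagonist gene Fst was 1.83 ± 0.24 higher, by 0.50 in batch 1 and 2.34 in batch 2. The transcription factor genes Gata4 (0.90) and Gata6 (1.01) were higher with means of 3.92 and 0.781 CPM in LiTEC, and Sox7 (-1.60) was lower. Summed over 6 markers, primitive endoderm was at 8.54, 11.3 and 16.5 CPM in LiTEC and 5.8, 7.40 and 10.4 CPM in WT. Laminin genes split: Lamc1 was 0.52 ± 0.03 higher and Lamb1 was at -0.56 ± 0.04, neither with overlap. Neuroectoderm genes gave 1 higher and 3 lower of 8 and trophectoderm genes 1 higher and 1 lower of 7, or 50.0% and 28.6% called, beside 47.0% over all tested genes. Pax6, of the neural tube and eye, was at -0.88 ± 0.24, Nes (nestin) was 0.52 ± 0.05 higher, and Ascl2, of the placenta, was 2.08 ± 0.27 higher at a median of 1.23 CPM.

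Several targets of the pathways that 2i and LIF act on were lower. In the FGF and ERK list 11 were lower and 4 higher of 23, or 65.2% called beside 47.0% over all tested genes. The list's median was -0.20 (-0.04 within batch 1 alone and -0.28 within batch 2 alone). The feedback phosphatase gene Dusp6 was at 7.89, 13.6 and 23.9 CPM against 13.9, 27.0 and 45.4 CPM (-1.01 ± 0.11), the feedback inhibitor gene Spry4 at -1.06, and Ccnd1, cyclin D1, at 79.0, 104 and 122 CPM against 131, 188 and 227 CPM (-0.81 ± 0.08, no overlap). The receptor gene Fgfr1, on chromosome 8, was 0.47 ± 0.04 higher, and the kinase gene Map2k2 (-0.06) did not pass. In the Wnt list 7 were lower and 2 higher of 14 (64.3% called, median -0.15). Notum, a secreted Wnt inhibitor, was at 10.3, 16.7 and 21.7 CPM against 32.5, 43.9 and 51.8 CPM (-1.41 ± 0.11, no overlap), and T, Lef1 and Sp5 (-0.66) were lower, whereas the feedback gene Axin2 was at -0.15 and did not pass. Notum overlaps an antisense gene, and no strand setting of the counting was given.

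Ligands, receptors and targets of Nodal and BMP were lower in 14 of 22 and higher in 1, or 68.2% called beside 47.0% over all tested genes. Their median was -0.20 (-0.08 within batch 1 alone, where 9 were lower, and -0.24 within batch 2 alone). Among targets, Lefty2, a Nodal antagonist, was at 51.1, 59.2 and 80.2 CPM against 81.5, 126 and 179 CPM (-0.91 ± 0.12, no overlap), and the BMP target genes Id1 and Id2 were at -0.76 and -0.60. Of the ligands, Bmp4 was at -0.50 ± 0.10 (-0.09 in batch 1, -0.71 in batch 2) and Nodal itself at 0.05, not past the test. The only higher member was the transducer gene Smad1 (0.45 ± 0.05, chromosome 8). In the Notch list 9 were lower and 4 higher of 16 (81.2% called, median -0.29). The ligand genes split: Jag1 was at 18.6, 22.9 and 27.1 CPM against 35.3, 42.1 and 45.2 CPM (-0.80 ± 0.06), Dll1 was at -0.81, and Jag2 was 0.66 ± 0.06 higher. Among receptors Notch4 was at -0.87 ± 0.10 and Notch3 0.32 ± 0.06 higher, and the target gene Hes1 was at -0.26. Of 8 tested retinoic acid genes 5 were lower, among them the retinoid carrier gene Crabp1 (-1.08 ± 0.12), and 1 was higher. LIF signalling was mixed, 6 higher and 6 lower of 17 (70.6% called, median -0.01). Jak2, a kinase on the LIF receptor, was 0.68 ± 0.10 higher, Stat3 at 0.07 did not pass, and Myc was at -0.89 ± 0.15.

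Genes of glycolysis and the hypoxia response were lower as a broad group: 23 lower and 3 higher of 29 gene entries (Aldoa has 2), median -0.34. The share called was 89.7%, beside 47.0% over all tested genes. Ldha, lactate dehydrogenase A, was at 399, 449 and 532 CPM in LiTEC against 617, 719 and 898 CPM in WT (-0.72 ± 0.04 log2, edgeR adjusted p = 3.71e-13). Hk2, hexokinase 2, was at 282, 319 and 329.8 CPM against 370.0, 456 and 492 CPM (-0.50 ± 0.03), and Pgk1, phosphoglycerate kinase, at 170.4, 182 and 204 CPM against 238, 260.5 and 350.1 CPM (-0.59 ± 0.05). None of these 3 overlapped between lines. Ndrg1 (-0.99 ± 0.10) and the mitophagy gene Bnip3 (-0.87 ± 0.12), both induced by low oxygen, were lower, and Gapdh was at -0.21 ± 0.03. The higher ones were Hk1 (0.45), the prolyl hydroxylase gene P4ha2 (0.50) and the muscle phosphofructokinase gene Pfkm (0.34). On chromosome 6 lie 5 members and on chromosome 8 lie 2, and of the other 22, 18 were lower and 3 higher (median -0.35). Within batch 1 alone 20 were lower (median -0.20) and within batch 2 alone 22 (median -0.45).

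The promoters of the listed genes were searched for ACGTG, the core of the hypoxia response element, in the 250 bases before each start. Both strands were searched, so CACGTG counts as 2. At least 1 promoter held ACGTG in 15 of 25 list genes with a promoter in the RefSeq table (60.0%). The motif was in 11 of the 20 called lower (55.0%), and in 4998 of all 27025 genes (18.5%). The list was itself drawn from hypoxia and glycolysis genes, so a share above that of all genes may come from how it was drawn. Whether the motif bears on the line difference was not tested. The 3 stretches below all hold matches and do not stand for all lower genes. A match is a description of the letters and not a bound site. The stretches of 3 lower genes are shown, from RefSeq on GRCm38.p6, 5′ to 3′ on the gene's strand, with matches on either strand in capitals: Ldha, the first of 2 starts, at chr7:46845554-46845803 (plus, 5 matches), Pgk1 at chrX:106186850-106187099 (plus, 2 matches) and Bnip3 at chr7:138909507-138909756 (minus, 2 matches).
Ldha: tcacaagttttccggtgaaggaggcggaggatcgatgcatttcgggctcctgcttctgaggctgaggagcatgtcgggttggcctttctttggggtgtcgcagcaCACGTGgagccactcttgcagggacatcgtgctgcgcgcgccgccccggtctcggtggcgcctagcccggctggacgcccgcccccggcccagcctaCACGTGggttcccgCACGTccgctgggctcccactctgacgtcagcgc
Pgk1: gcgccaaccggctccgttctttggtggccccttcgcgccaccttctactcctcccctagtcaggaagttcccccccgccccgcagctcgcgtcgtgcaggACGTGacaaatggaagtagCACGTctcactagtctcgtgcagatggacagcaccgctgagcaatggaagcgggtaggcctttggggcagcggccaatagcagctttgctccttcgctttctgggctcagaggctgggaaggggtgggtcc
Bnip3: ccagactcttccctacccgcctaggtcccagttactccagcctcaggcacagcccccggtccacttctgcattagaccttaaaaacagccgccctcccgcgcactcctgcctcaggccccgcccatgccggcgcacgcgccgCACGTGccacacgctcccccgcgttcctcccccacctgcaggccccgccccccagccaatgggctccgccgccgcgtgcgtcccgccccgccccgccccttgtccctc
The stretch before the other Ldha start holds 0 matches. Ldha, Pgk1 and Bnip3 were lower by 0.72, 0.59 and 0.87 on the log2 scale.

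Of 75 nuclear genes for oxidative phosphorylation, 36 were lower and 3 higher (median -0.14), for example Cox6c (-0.41 ± 0.04) and Sdhb (-0.25 ± 0.03). That is 52.0% called, beside 47.0% over all tested genes. Of the 75, 19 were called in the dark and also in the lit libraries in the same direction. In batch 1 by itself 20 were lower and 6 higher (median -0.05), and in batch 2 by itself 36 and 1 (median -0.18). The 13 mitochondrially encoded mRNAs had 2 higher and 0 lower (15.4% called, median 0.06), mt-Cytb at 0.25 ± 0.06 and mt-Nd2 at 0.34 ± 0.09. In the unfolded protein response list 13 were lower and 4 higher of 20 (median -0.18), with the endoplasmic reticulum chaperone gene Hyou1 at 154, 178 and 189.8 CPM against 232, 251 and 287 CPM (-0.54 ± 0.05, no overlap), Pdia4 at -0.52 ± 0.03 and Hspa5, BiP, at -0.43. Targets of ATF4, the integrated stress response factor, ran the other way, 11 higher and 1 lower of 22 (54.5% called, median 0.25). Only 5 of the 22 were called in the dark and also in the lit libraries in the same direction. Pck2 was 0.74 ± 0.13 higher, Atf3 1.06 ± 0.24 and Chac1 1.06, while Atf4 itself was at -0.02 and did not pass. Atf3 had medians of only 1.05 CPM in LiTEC and 0.547 CPM in WT, and lost its call under 1 alternative. Within batch 1 alone the ATF4 list had 4 higher and 2 lower (median 0.06).

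NRF2 targets, which guard against oxidation, were lower in 12 and higher in 6 of 22 (median -0.15), or 81.8% called beside 47.0% over all tested genes. Cbr3 was at 4.09, 5.58 and 6.77 CPM against 11.4, 13.4 and 14.4 CPM (-1.25 ± 0.08), and Srxn1, sulfiredoxin, at -0.72 ± 0.06, both with no overlap, whereas Ftl1 and Me1 (0.46) were higher. Of 20 heat shock chaperones 10 were lower and 5 higher: Hspb1 was 0.59 ± 0.05 higher and Hspa4 at -0.25 ± 0.03, and the inducible genes Hspa1a (-0.20) and Hspa1b (-0.10) did not pass. Of 24 p53 targets 10 were higher and 6 lower (66.7% called, median 0.07). Pmaip1, the death effector Noxa, was at 10.2, 12.8 and 15.2 CPM against 3.46, 5.12 and 5.69 CPM (1.42 ± 0.08, no overlap). Cdkn1a, p21, was 0.23 ± 0.06 higher, and Mdm2 (0.00) and Trp53 (-0.06 ± 0.04) did not pass.

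In the cell cycle lists, G1/S genes were lower in 14 and higher in 4 of 26 (median -0.12), and G2/M genes gave 1 higher and 2 lower of 17 (median -0.03). The shares called were 69.2% and 17.6%, beside 47.0% over all tested genes. Ccne1, cyclin E1, was at 109.9, 139 and 157 CPM against 169, 189 and 209 CPM (-0.47 ± 0.05) and Mcm2, of the replicative helicase, at -0.34 ± 0.03, both with no overlap. The CDK inhibitor genes Cdkn2b (0.76) and Cdkn2a (0.62) were higher. Ribosomal protein genes had 16 lower and 8 higher of 76 (31.6% called, median -0.04). Within batch 1 alone they had 12 higher and 8 lower, and within batch 2 alone 2 higher and 13 lower.

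The Mediator complex, which links enhancer-bound factors to RNA polymerase II and is a component of transcriptional condensates, had 9 genes higher and 10 lower of 33 (median -0.06). That is 57.6% called, beside 47.0% over all tested genes. The widest gap was in Med12l, a paralogue of the kinase module gene Med12, at 13.2, 22.6 and 26.6 CPM in LiTEC against 2.45, 4.01 and 5.25 CPM in WT (2.39 ± 0.15 log2, edgeR adjusted p = 1.63e-11). Med12 (0.36 ± 0.04), Med13l (0.35 ± 0.03) and Cdk19 (0.34), of the same module, were also higher, whereas Cdk8 (-0.06) did not pass and Ccnc was at -0.21. Among the other subunits Med16 was 0.46 higher and Med25 at -0.37 ± 0.03, and Med1, a subunit found in condensates, was at -0.09. In the list of RNA polymerase II and elongation genes 14 were lower and 5 higher of 33 (57.6% called, median -0.10). Polr2a, the largest polymerase subunit, was at 605, 672 and 820.1 CPM against 831, 871 and 941 CPM (-0.36 ± 0.04), with WT above in every library. The elongation factor gene Ell, on chromosome 8, was 0.56 ± 0.04 higher.

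Of 16 tested clock genes 11 were lower and 1 higher (median -0.40). The higher one was Clock itself, at 173, 196 and 209 CPM against 79.5, 86.6 and 97.9 CPM (1.14 ± 0.04 log2, edgeR adjusted p = 3.15e-16), with no overlap. Clock lies in a run of 7 neighbouring tested genes all called higher, at chr5:75932827-76304792 (median 1.32, from 0.56 to 2.09), so its difference is not particular to a clock gene. The clock output gene Hlf was at -1.51 ± 0.12, the repressor genes Per2 at -1.87, Per1 at -0.45 ± 0.05 and Cry2 at -0.50 ± 0.05, and Arntl, the partner of CLOCK, at -0.02, not past the test.

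Imprinted genes, expressed from 1 parental copy, were called in 22 of 38 (57.9%, beside 47.0% over all tested genes). Of the 38, 14 were higher and 8 lower (median 0.07, and -0.06 within batch 1 alone), several with wide gaps. The neighbours Peg10 and Sgce on chromosome 6 were both higher: Peg10 was at 459.5, 861 and 1125 CPM against 204, 281 and 383 CPM (1.47 ± 0.15), and Sgce at 12.6, 16.8 and 25.8 CPM against 3.75, 5.11 and 8.03 CPM (1.70 ± 0.14). Plagl1 was 1.48 ± 0.10 higher, by 2.10 in batch 1 and 1.23 in batch 2. At the H19 and Igf2 locus the genes ran apart, H19 1.42 higher and Igf2 at -2.47, at means of 0.158 CPM in LiTEC and 0.932 CPM in WT. Nnat was at 1.38, 2.13 and 3.35 CPM against 5.59, 6.71 and 8.46 CPM (-1.5 ± 0.14, no overlap). Airn, the antisense RNA that silences Igf2r in other cells, was 1.32 higher, and Igf2r was 0.41 higher. The 2 overlap on opposite strands, so reads may have been counted for either.

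The differences were not spread evenly over chromosomes. Medians were taken over genes averaging 1 CPM or more, as a description with no test. On chromosome 8 the median of 780 genes was 0.27 log2, with 543 (69.6%) higher and 36 (4.62%) lower in LiTEC, against 25.5% and 25.7% over all 14500 such genes. On chromosome 6 the median of 681 genes was -0.15, with 319 (46.8%) lower and 104 (15.3%) higher. The other autosomes and X had medians from -0.05 to 0.02. All 7 Y-linked genes at this level were higher (median 0.70), among them the translation factor gene Eif2s3y at 89.4, 98.3 and 108 CPM against 61.2, 66.1 and 72.3 CPM (0.56 ± 0.04), the helicase gene Ddx3y (0.70 ± 0.04) and Zfy1 (2.41 ± 0.14), none with overlap.

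Both autosomal shifts were alike in every pair of libraries of the same time and replicate number. Over the 9 pairs the median of chromosome 8 lay between 0.257 and 0.290 and that of chromosome 6 between -0.179 and -0.139. In the 18 lit libraries, which the dark comparison did not use, the medians were 0.27 and -0.15. Along chromosome 8 each 10-Mb stretch had a median from 0.17 to 0.39. Along chromosome 6 the first 10 Mb, where Peg10 and Sgce lie, had a median of 0.18, the stretch from 90 to 100 Mb one of -0.26, and that from 140 to 150 Mb one of -0.07. What underlies these shifts was not tested. Outside chromosomes 6 and 8, 7144 of 15766 genes were called (45.3%), 3564 higher and 3580 lower, and 810 were over 1 log2.

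**Figure D4:**
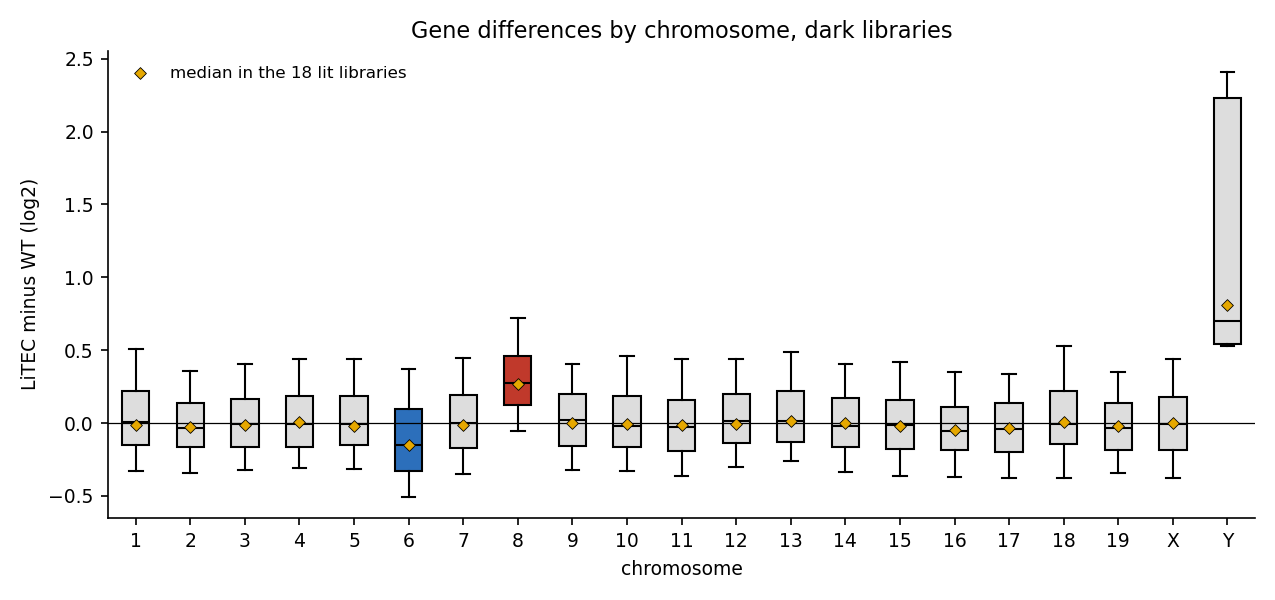
LiTEC minus WT difference on the log2 scale by chromosome, for genes averaging 1 CPM or more: boxes span the quartiles, lines mark medians, whiskers reach the 10th and 90th percentiles, and diamonds mark medians in the lit libraries. Chromosome 8 (red, median 0.27) and chromosome 6 (blue, median -0.15) stand away from 0, and the Y box holds 7 genes.

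There were 108 runs of at least 5 neighbouring tested genes called the same way, 71 higher and 37 lower in LiTEC, with 709 of the 17538 tested genes. Chromosome 8, where 69.6% of genes averaging 1 CPM or more were higher, held 33 of the runs, with 243 genes. The longest lay at chr8:111154421-112020528 (15 genes, median 0.38, among them the autophagy gene Gabarapl2, 0.81 ± 0.06) and at chr8:83566671-84000409 (14 genes, median 0.39, with the adhesion receptor gene Adgre5 at 1.30 ± 0.06 and Gipc1 at 0.70 ± 0.04). A run of 12 genes at chr8:19789798-22220843, with Nek3 0.72 ± 0.06 higher, had a median of 0.54. Away from chromosome 8, 12 neighbours at chr1:119470305-120272705 had a median of 0.73. There Steap3, a metalloreductase of iron uptake, was at 18.3, 25 and 30.6 CPM against 4.36, 6.09 and 10.04 CPM (1.87 ± 0.08, no overlap), Tmem185b was 0.87 ± 0.07 higher and Dbi, an acyl-CoA binding protein gene, 0.76 ± 0.05. The 12 genes at chr12:87480108-88324026, a cluster of near-identical copies that includes Gm8300 and Gm5039, had a median of 3.10, and the 10 Zscan4 genes and pseudogenes at chr7:10794242-11614112 one of 3.69. The longest lower run had 10 genes, at chr7:127022130-127238179 (median -0.38). Neighbours can share reads and regulation, so they are not independent.

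A test of a change of the line difference over time called 0 genes (0.00%; edgeR, smallest adjusted p = 0.446, 517 genes at an unadjusted p below 0.05, and 0 genes by DESeq2). Of the 920 genes over 1 log2, 917 had the same sign at each time and 515 were called at each. The 920 were chosen by their average over the same libraries, and a lack of calls does not show that the times were alike.

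Between batches 26 genes (0.148%) differed in the line difference, 15 with a lower and 11 with a higher value in batch 2. With a term for replicate number in place of that for batch (the replicate block) the count was 181 (63 higher, 118 lower). The count of 26 rested on single libraries: it was 0 without WT 4 h replicate 1 and 59 without WT 4 h replicate 3, the library with the high ribosomal RNA share. Leaving out any other library gave 2 to 17, a fall of over 1.5 times, except LiTEC 4 h replicate 2 (19) and WT 1 h replicate 3 (28). Batch 1 alone called 5780 genes (33.0%) and batch 2 alone 6774 (38.6%), of which 4113 were called in both in the same direction and 21 in opposite directions. Of the 920 genes, 916 had the same sign in both batches. The 920 were chosen by their average over these same batches, so a shared sign is no separate evidence. Tfap2a, an AP-2 transcription factor gene, was at 22.7, 33.4 and 39.3 CPM against 2.96, 6.30 and 19.6 CPM: it was 1.02 log2 higher in batch 1 and 2.42 in batch 2. Other genes of this kind are given in the closing part.

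The lit libraries gave a second measure of the same lines, with no library in common. In them 7768 genes passed (44.3%), of which 3988 were higher in LiTEC and 3780 lower. Of the 8244 dark calls, 6324 were also called in the lit libraries in the same direction, which is 76.7% of the dark and 81.4% of the lit calls, and 0 in the opposite one. Of the 920 genes over 1 log2, 839 were called in the lit libraries too. Cdh3 (3.01), Clock (1.00), Ldha (-0.60), Ccnd2 (-2.64) and Zscan4c (3.70) gave lit differences close to those in the dark, and the HoxC gene Hoxc12 (0.53 against 1.17) and Pcdhgc5 (0.12 against 0.67) gave smaller ones. Whether dark and lit values differ was not tested.

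**Figure D5:**
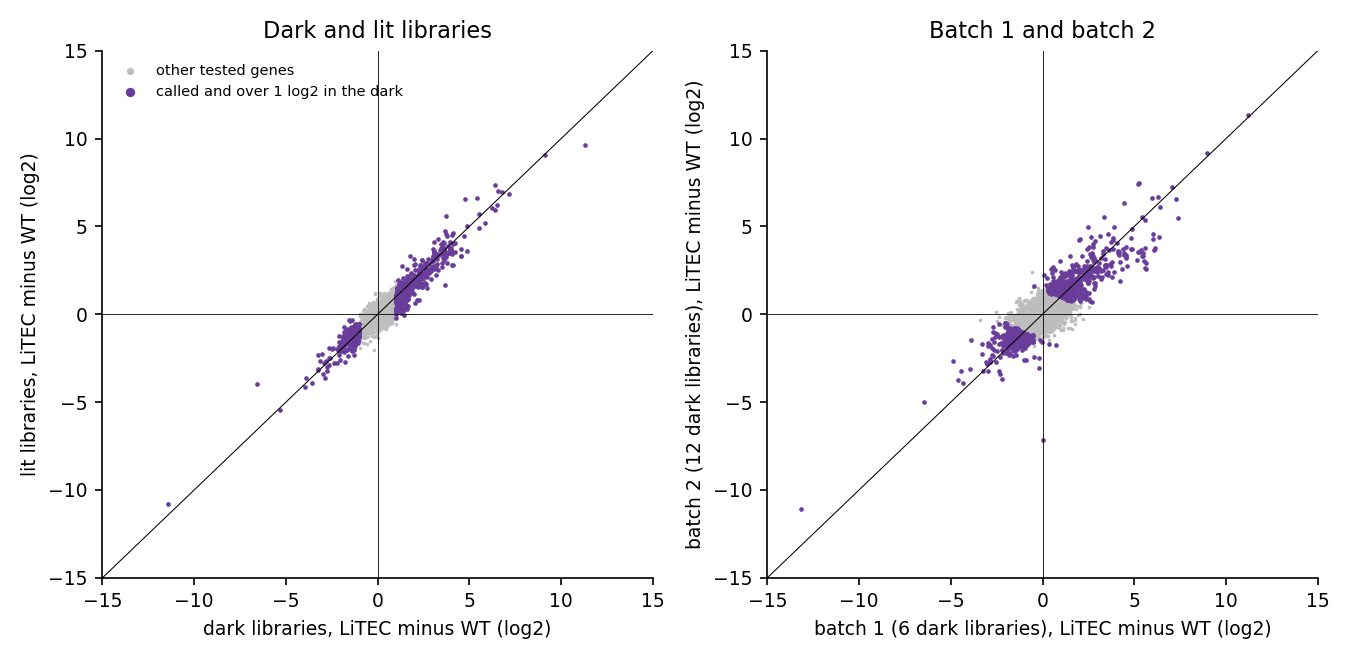
LiTEC minus WT difference on the log2 scale in lit against dark libraries (left) and in batch 2 against batch 1 of the dark libraries (right), 1 point per tested gene, with the 920 genes called and over 1 log2 in purple and a line of equal values. In the dark and lit panel most purple points lie near the line. In the batch panel 916 purple points have the same sign in both batches, but the 920 were chosen from these batches.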

How the data were processed

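RNA of 36 libraries was counted per gene, and the 18 dark ones were compared here. Per the labels' protocols, TRIzol RNA went into a stranded mRNA library kit. The authors deposited raw counts per gene. Tools named in the submitters' processing notes include FastQC and featureCounts, with GRCm38 (mm10) as the build. Not given in the sources used here are the aligner, the versions, the strand setting and how multi-mapping reads were handled, so counts of overlapping genes and near-identical copies are uncertain, and the text marks only some of them. Coordinates are 1-based, from GENCODE M21, which matched 17530 of 17538 tested genes by identifier.

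Genes passed edgeR's filterByExpr (minimum count 10), libraries were scaled by TMM, and time, batch and line were fitted by quasi-likelihood in edgeR 4.0.16 under R 4.3.3 (glmQLFit, glmQLFTest) with 13 residual degrees of freedom. Terms for line by time and line by batch were fitted separately, and the 18 lit libraries on their own. The code was tested on simulated data. DESeq2 1.42.0 and other settings were alternatives. Same-numbered LiTEC and WT libraries of a time deviated together (9 correlations, 0.29 to 0.668, against -0.521 to 0.103 for other numbers), so the numbers were taken to pair libraries, a reading that rests on these data and on the batches in the titles.

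The 41 gene lists, the tests and the genes compared were chosen with earlier results of these data known. Genes were named by rule: the 14 largest called differences each way with a usual symbol and at least 5 CPM in a line, genes on in 1 line alone (under 0.1 CPM in each library of a line, at least 1 CPM in the other), up to 4 members of each list by smallest p, 12 fixed genes (Pou5f1, Nanog, Sox2, Klf4, Esrrb, Zfp42, Dnmt3l, Cdkn1a, Trp53, Xist, Actb, Gapdh), the 12 smallest p of the batch test, and up to 4 members of the 5 longest runs. Other list members, neighbours and runs were named after their values were seen. Lists were described by counts and medians, with no test of a list. Listed genes that did not pass the low-count filter are left out of every list count, and a gene can pass it through the line where it is high. A few list members are not reported here.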

Additional observations from a re-analysis of the deposited data

Results flagged for a closer look

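In 12 genes the LiTEC minus WT difference was not the same in both batches by the line-by-batch term (edgeR's quasi-likelihood test, Benjamini-Hochberg adjustment), the 12 smallest p-values among 26 such genes with a usual symbol. Values are the difference in batch 2 minus that in batch 1, on the log2 scale, and what sets the batches apart was not tested. In 5 genes the line difference kept its direction and was nearer 0 in batch 2. These were the imprinted zinc finger gene Plagl1 (-0.8664, from 2.10 to 1.23), the dynein gene Dnah8 (0.8336, from -1.42 to -0.60), the neurofilament gene Nefl (0.8618, from -1.01 to -0.15), the Ras activator gene Rasgrp1 (0.9964, from -1.76 to -0.77) and the phospholipase gene Pla2g1b (0.7444, from -1.81 to -1.06). Tenm4, a teneurin gene, was also nearer 0 (-0.462, from 0.53 to 0.06). Tfap2a was further from 0 in batch 2 (1.414, from 1.02 to 2.42).

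In the other five the direction turned. Gstt1, a glutathione transferase gene, went from -0.24 in batch 1 to 1.51 in batch 2 (1.763), and Acsl5, an acyl-CoA synthetase gene, from -0.35 to 0.57 (0.9384). Frem2 went from -0.82 to 0.05 (0.8711), the tuft cell factor gene Pou2f3 from 0.82 to -0.18 (-0.9971) and the protease gene Adamts9 from 0.27 to -0.23 (-0.4975). Each of the 12 lost the call under at least 1 alternative.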

How the results depend on the processing

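The count of genes that differed between lines (8244) stayed within 1.5 times under other scalings, DESeq2, no filter, the replicate block (8868) and leaving out any library (7776 to 8573). Asking for a difference over 1 log2 left 920 (631 higher, 289 lower), which became 1693 with no filter on low counts and 161 at 5 CPM or more. The change over time went from 0 to 41 genes with no filter. The batch test (26 genes, 11 higher, 15 lower) gave 114 by DESeq2 (42 and 72), 171 with no filter (60 and 111), 181 with the replicate block (63 and 118), and 0 to 59 without 1 library (0 to 23 and 0 to 36). The block changed no other count by as much. The lit comparison gave 3594 genes in batch 1 alone (1892 higher, 1702 lower), which holds fewer libraries. The median of chromosome 6 was -0.1379 over all tested genes, -0.2059 at 5 CPM or more and -0.174 in batch 1 alone, that of chromosome 8 0.2583 in batch 1 alone, that of Y 0.5633 at 5 CPM or more, and the highest of the others -0.0036 at 5 CPM or more. Without 1 library these medians ran from -0.1609 to -0.1495, 0.2648 to 0.277 and 0.6786 to 0.7178. In batch 1 alone 5 genes turned sign: Eomes (0.331), Nanog (0.0617), Acsl5 (-0.3538), Gstt1 (-0.2443) and Adamts9 (0.271), and the cause was not tested. Of 224 named genes, 187 kept direction and call under all alternatives run. Restricting counts to genes outside chromosomes 6 and 8 was chosen after seeing the data. Other scalings moved the median of all genes from 0.0101 to 0.0016 at the least. Genes under a few CPM limit what depth can show.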

Other observations

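Interferon and antigen presentation genes were called in 11 of 22, 4 higher and 7 lower in LiTEC (median -0.10). That is 50.0%, beside 47.0% over all tested genes. The membrane antiviral gene Ifitm3 was at 21, 25.3 and 31.6 CPM (lowest, median, highest) in LiTEC against 41.7, 45.8 and 51.6 CPM in WT, a difference of -0.86 ± 0.06 log2 with no overlap. Gbp2, a guanylate-binding protein gene, was at 0.0744, 0.328 and 0.648 CPM against 1.87, 2.68 and 3.41 CPM (-2.89 ± 0.21). Oasl2 was at -3.01 and Ifi27 3.04 higher, both with means under 1 CPM in each line. Irf1 (-0.09) did not pass. Genes of fibroblasts and feeder cells were low throughout: 8 markers summed to 2.83, 4.01 and 6.03 CPM in LiTEC and 5.04, 8.22 and 10.8 CPM in WT. Of 9 tested genes of the wider fibroblast list 2 were higher and 3 lower (55.6% called). The collagen genes Col1a2 (-2.94 ± 0.47), Col3a1 (-2.97 ± 0.59) and Col1a1 (-1.48 ± 0.27) were lower in LiTEC, while Loxl1, a lysyl oxidase gene, was 1.70 ± 0.24 higher and the receptor gene Pdgfrb 0.38 higher. Col1a1 was at -0.49 within batch 1 alone and did not pass there (edgeR adjusted p = 0.0763). Of 24 cholesterol synthesis genes 5 were higher and 1 lower, and within batch 1 alone 4 were higher and 4 lower.

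Of 56 tested zinc finger genes of the Zfp900 series, many of them KRAB repressors, 20 were higher and 5 lower (median 0.08), or 44.6% called beside 47.0% over all tested genes. In batch 1 by itself 12 were higher and 10 lower (median -0.04), and within batch 2 alone 17 and 3 (median 0.13). Zfp951 was at 17.3, 20.2 and 24.1 CPM against 6.85, 8.48 and 10.4 CPM (1.25 ± 0.06, no overlap), and Zfp981 was 0.65 ± 0.06 higher. At the X inactivation centre the non-coding RNAs Ftx (0.77 ± 0.10) and Tsix (0.44 ± 0.06) were higher and Xist was at -0.96 ± 0.26, with medians of 0.761 CPM in LiTEC and 1.46 CPM in WT. Xist and Tsix overlap on opposite strands, so their counts are uncertain. Among gene classes, protein-coding genes were called in 53.8% of cases, 3576 higher and 3677 lower, while long intergenic non-coding RNAs had 133 higher and 65 lower of 510, and antisense RNAs 86 higher and 37 lower of 349.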
